A study of Mus musculus with 8 samples.

Results

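The 9 genes described here (*Ttr*, *Clic6*, *Aqp1*, *Folr1*, *Kl*, *Prlr*, *Otx2*, *Msx1* and *Foxj1*) are genes of the choroid plexus, chosen by name out of the 33971 genes of the deposited table. These genes and the lists of other genes used below were chosen with earlier results of these data known. All 9 were found, and all 9 were among the 19367 genes that passed the filter on low counts. Whole brains of wild-type (WT) embryos were collected at E14.5, in mid-gestation, from WT dams mated with WT males. The dams were given a choline-deficient diet (CDD, 4 brains) or a normal chow diet (ND, 4 brains) from the day of mating. Polyadenylated RNA was sequenced in bulk, and the number of dams and litters behind these brains is not stated in the sources used here, so p-values measure the spread between these brains, which may include littermates. Expression is given as CPM, a gene's reads relative to the scaled library size, and the diets are compared as log2 of CDD over ND, by edgeR's quasi-likelihood test, called at an adjusted p-value (Benjamini-Hochberg over all genes tested) under 0.05.

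The choroid plexus is a sheet of cuboidal epithelium around leaky capillaries in the brain ventricles. It secretes cerebrospinal fluid and forms the barrier between blood and that fluid. Its epithelium arises from the dorsal midline (the roof plate and, in the telencephalon, tissue next to the cortical hem) under BMP and Wnt signals, and its cells then become multiciliated. *Ttr* encodes transthyretin, the thyroid hormone carrier that the epithelium secretes in large amounts. *Aqp1* encodes a water channel, *Clic6* a protein of the chloride intracellular channel family, *Folr1* the folate receptor through which folate enters the fluid, *Kl* the FGF23 co-receptor Klotho, and *Prlr* the prolactin receptor. *Otx2* and *Msx1* encode homeodomain transcription factors of the dorsal midline and *Foxj1* the forkhead factor of motile cilia. *Otx2* is needed for the choroid plexus to form, but it is also expressed in the midbrain and other parts of the embryonic brain.

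Library totals ranged from 32706627 to 43121170 counts with CDD and from 31770217 to 34399295 counts with ND. Markers of brain tissue were abundant in every library (*Tubb3* at 1880 CPM with CDD and 1860 CPM with ND). CDD replicate 2 stood apart by its caudal hindbrain and spinal cord markers (6 genes), which summed to 100 CPM there and to between 3.74 and 7.73 CPM in the other 7 brains. CDD replicate 4 was the lowest brain in 25.0% and the highest in 23.8% of the 15888 tested genes of at least 1 CPM.

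Of the 9 choroid plexus genes, only *Otx2* passed the test between the diets. Among all genes tested, 8.83% were called (4.24% higher and 4.59% lower with CDD), so 1 called gene of 9 is near the share of all genes. The fitted difference was above 0 for 7 genes and below 0 for *Kl* and *Prlr*, with a median log2 fold change of 0.13 (-0.00378 over all genes tested). *Otx2*, *Clic6* and *Aqp1* had an unadjusted p-value under 0.05, as had 23.9% of all genes. *Clic6* alone had no overlap between the diets. All CDD brains were above all ND brains for 7.65% of all genes, and below them for 7.39%. The number of members called depended on single brains, as did the number over all genes, which was 1710 with all brains. Without ND replicate 1, ND replicate 3 or ND replicate 4, 0 members were called, where 688, 471 and 615 of all genes were. Without CDD replicate 4, 2 members (*Otx2* and *Clic6*) and 1514 of all genes were called. Without CDD replicate 3, 3 members (with *Aqp1*) and 2495 of all genes were called. Without CDD replicate 1 the only member called was *Clic6*. In bulk RNA, fewer choroid plexus cells and less RNA per cell cannot be told apart.

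**Figure D1:**
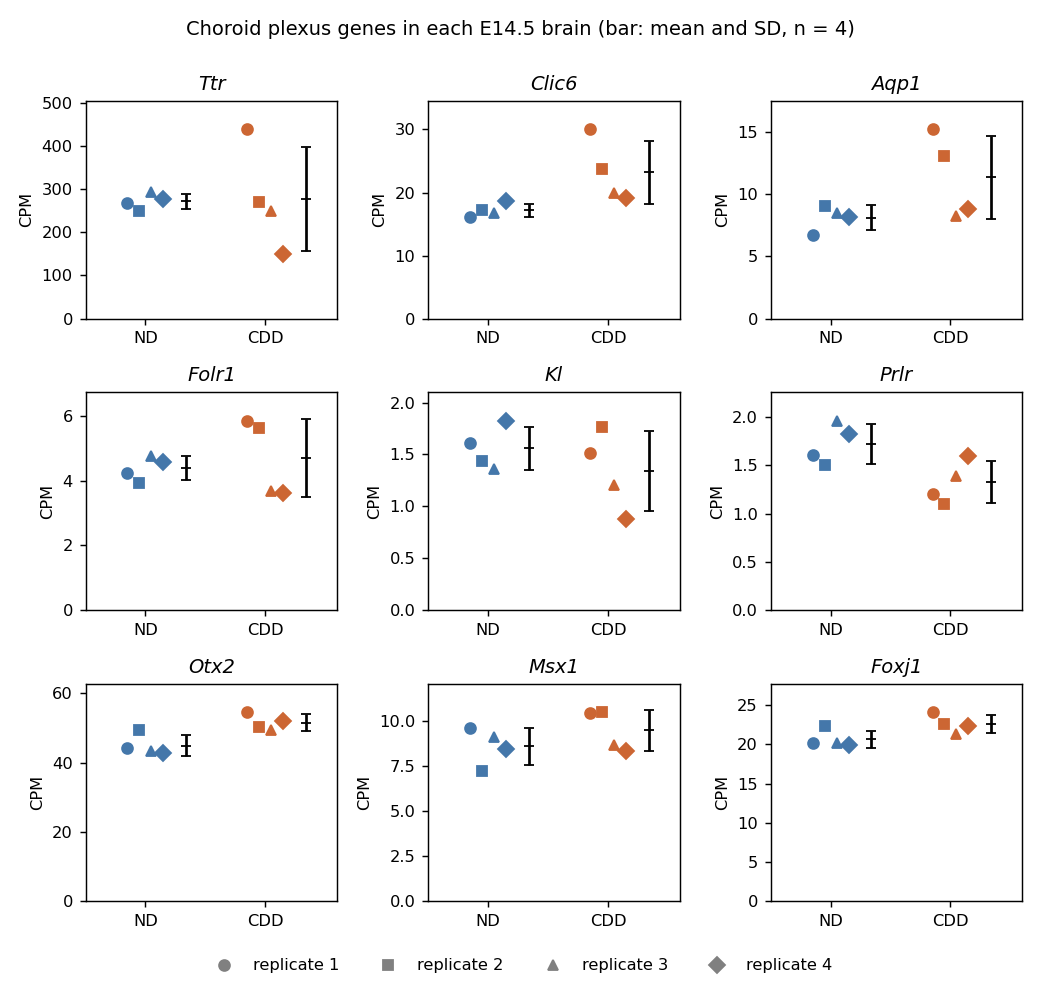
CPM of each of the 9 genes (vertical axis, from 0) in each brain by diet (horizontal axis). Symbols mark replicates 1 to 4, and the bar beside each group is its mean with the SD (n = 4). The CDD brains spread widely for *Ttr*, from 149 to 439 CPM, around tightly grouped ND brains.

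*Otx2* (ENSMUSG00000021848, chromosome 14, 48895134 to 48911276, minus strand, as the authors list it on a build that is not named) was higher with CDD. It was at 54.7, 50.3, 49.4 and 52.2 CPM in CDD replicates 1 to 4 and at 44.3, 49.4, 43.3 and 43.0 CPM in ND replicates 1 to 4. The ranges met between CDD replicate 3 and ND replicate 2, and the other 3 CDD brains were above every ND brain. The rise was small, 1.15-fold, or 0.20 on the log2 scale (standard error 0.056, edgeR adjusted p = 0.0327). It was no longer called without CDD replicate 1 (edgeR adjusted p = 0.0867), ND replicate 1 (0.0976), ND replicate 3 (0.131) or ND replicate 4 (0.121). The antisense gene *Otx2os1*, which overlaps *Otx2*, had 58 to 101 counts per brain against 1482 to 2124 counts of *Otx2*. Since the counting is not stated to use strand, reads of the overlap cannot be assigned with certainty. The progenitor genes *Nes* and *Pax6*, from the list of brain markers, were also higher with CDD (log2 fold changes of 0.47 and 0.25, edgeR adjusted p = 0.00344 and 0.00642). *Sox2*, a progenitor gene of the same list, was not called (log2 fold change 0.09, edgeR adjusted p = 0.183). The 6 midbrain markers summed to between 131 and 142 CPM with CDD and between 122 and 140 CPM with ND. Of the 6, 0 were called, where 8.83% of all genes tested were. The part of either tissue in the rise of *Otx2* was not tested.

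Promoter windows (250 bases before to 50 after a RefSeq start, GRCm38.p6) were found for 5 of the 9 genes, *Otx2*, *Aqp1*, *Msx1*, *Kl* and *Prlr*. They were searched on both strands for the cores TAATCC (bound by OTX2), TAATTG (bound by MSX1) and GTAAACA (bound by forkhead factors), to see whether these factors' core letters stand before the genes described here. *Otx2* had 4 windows, and both homeodomain cores were found among them. TAATCC is in 7.1% and TAATTG in 8.0% of all 32851 promoter windows, and GTAAACA, which was found in 1 window of *Prlr*, in 3.6%. Counted per gene over all its windows, the shares are 8.1%, 9.2% and 4.1% of 27025 genes. Each core was found in 1 of the 5 genes. A gene with several windows, such as *Otx2*, has more places for a match. A match of letters is a description and not a binding site. The windows of *Otx2* with a homeodomain core and that of *Aqp1*, which holds none of the 3 cores, are shown with matches in capitals. Their GRCm38.p6 positions lie outside those that the authors list for *Otx2* and *Aqp1*. The listed positions are thus not on that build, and the coordinates cannot be set against each other. In the first window the match is TAATTG on the opposite strand, in the second TAATCC on the opposite strand, and in the third TAATTG on the strand shown.
Otx2, chr14:48667595-48667894, minus strand: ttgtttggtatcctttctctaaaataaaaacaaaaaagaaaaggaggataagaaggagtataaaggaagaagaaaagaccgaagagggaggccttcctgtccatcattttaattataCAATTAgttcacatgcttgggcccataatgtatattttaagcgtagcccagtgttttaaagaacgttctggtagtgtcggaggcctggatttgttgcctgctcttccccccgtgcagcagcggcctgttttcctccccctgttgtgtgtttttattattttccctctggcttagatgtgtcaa
Otx2, chr14:48665060-48665359, minus strand: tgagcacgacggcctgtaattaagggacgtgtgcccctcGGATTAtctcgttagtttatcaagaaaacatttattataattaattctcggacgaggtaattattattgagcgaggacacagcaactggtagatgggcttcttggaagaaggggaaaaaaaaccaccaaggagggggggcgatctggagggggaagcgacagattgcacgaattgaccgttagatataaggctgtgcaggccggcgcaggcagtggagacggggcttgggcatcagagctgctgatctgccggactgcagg
Otx2, chr14:48662685-48662984, minus strand: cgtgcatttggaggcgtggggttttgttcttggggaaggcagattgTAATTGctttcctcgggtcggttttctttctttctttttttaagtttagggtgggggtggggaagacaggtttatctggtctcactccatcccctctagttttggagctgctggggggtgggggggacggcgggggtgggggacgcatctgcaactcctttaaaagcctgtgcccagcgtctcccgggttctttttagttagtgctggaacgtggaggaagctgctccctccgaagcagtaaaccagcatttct
Aqp1, chr6:55336049-55336348, plus strand: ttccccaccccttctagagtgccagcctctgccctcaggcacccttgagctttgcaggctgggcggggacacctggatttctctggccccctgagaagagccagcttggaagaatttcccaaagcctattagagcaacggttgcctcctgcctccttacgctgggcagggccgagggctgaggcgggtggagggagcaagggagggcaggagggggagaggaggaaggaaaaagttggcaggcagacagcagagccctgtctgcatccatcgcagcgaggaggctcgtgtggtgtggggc

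*Clic6* and *Aqp1* had the largest fitted differences of the 9 genes, and neither passed the threshold. *Clic6* (ENSMUSG00000022949, chromosome 16, 92282624 to 92338131) was at 30.0, 23.7, 19.9 and 19.2 CPM in CDD replicates 1 to 4 and at 16.2, 17.2, 16.7 and 18.6 CPM in ND replicates 1 to 4. Every CDD brain was above every ND brain, but CDD replicate 4 was within 1 CPM of ND replicate 4. Its log2 fold change was 0.43 (95% interval 0.16 to 0.71, edgeR adjusted p = 0.0562). DESeq2 called it (adjusted p = 0.00389), as did edgeR without CDD replicate 1 (0.0477), CDD replicate 3 (0.0165) or CDD replicate 4 (0.0321). These were 3 of 8 fits with a brain left out, and edgeR's adjusted p was as high as 0.151 in the others. With limma-voom *Clic6* was not called (adjusted p = 0.0729). *Aqp1* (ENSMUSG00000004655, chromosome 6, 55313417 to 55325540) was at 15.2, 13.1, 8.25 and 8.78 CPM in the CDD brains and at 6.73, 9.03, 8.44 and 8.18 CPM in the ND brains. CDD replicates 1 and 2 were above every ND brain, whereas CDD replicates 3 and 4 lay within the ND range. The log2 fold change of 0.48 (95% interval 0.01 to 0.95) had an adjusted p of 0.196 in edgeR's test, of 0.0291 without CDD replicate 3 and of 0.0307 with DESeq2. It was called in only 1 of 8 fits with a brain left out, with edgeR's adjusted p as high as 0.34 in the others. With limma-voom *Aqp1* was not called (adjusted p = 0.268). *Aqp1* is also a gene of red blood cells, and the 7 erythroid markers summed to between 631 and 1233 CPM with CDD and between 793 and 2950 CPM with ND. The part of red blood cells in the values of *Aqp1* was not tested.

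*Ttr* (ENSMUSG00000061808) differed far more between CDD brains than between the diets. It was at 439, 271, 250 and 149 CPM in CDD replicates 1 to 4 (14531, 9343, 10757 and 4928 counts) and at 269, 248, 292 and 277 CPM in ND replicates 1 to 4. The highest and the lowest of the 8 brains were both CDD brains, which differed 2.95-fold, against 1.18-fold between ND brains. The means were 277 ± 120 CPM (SD, n = 4) with CDD and 272 ± 18.3 CPM (SD, n = 4) with ND. The log2 fold change was 0.03 (95% interval -0.74 to 0.80, edgeR adjusted p = 0.972), so the interval holds folds from 0.598 to 1.74. Its sign rested on single brains, with -0.28 without CDD replicate 1, -0.01 without ND replicate 2 and 0.23 without CDD replicate 4. *Ttr* is also a liver gene, and the 6 liver markers found, *Alb* and *Afp* among them, summed to at most 1.33 CPM in any brain. The sum of the 7 erythroid markers had the same order as *Ttr* over the CDD brains, at 1233, 1142, 971 and 631 CPM in CDD replicates 1 to 4, whereas in the ND brains they were at 1582, 793, 2950 and 1214 CPM while *Ttr* stayed between 248 and 292 CPM. Their part in the spread of *Ttr* was not tested.

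The folate receptor gene *Folr1* (ENSMUSG00000001827) was also spread more widely among CDD than among ND brains. It was at 5.86, 5.62, 3.67 and 3.62 CPM in CDD replicates 1 to 4 and at 4.24, 3.94, 4.77 and 4.58 CPM in ND replicates 1 to 4. CDD replicates 1 and 2 were above all ND brains and CDD replicates 3 and 4 below them. Its log2 fold change of 0.09 (95% interval -0.23 to 0.42, edgeR adjusted p = 0.778) became -0.03 without CDD replicate 1 and -0.01 without CDD replicate 2. *Anapc15* overlaps *Folr1* on the other strand and had 407 to 585 counts against 120 to 194 of *Folr1*, so that the count of *Folr1* is uncertain.

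The receptor genes *Kl* (ENSMUSG00000058488) and *Prlr* (ENSMUSG00000005268) were rare, with 29 to 63 and 38 to 68 counts per brain. *Kl* was at 1.51, 1.77, 1.21 and 0.875 CPM in CDD replicates 1 to 4 and between 1.36 and 1.83 CPM with ND. CDD replicates 3 and 4 were below every ND brain and the other two within the ND range. *Prlr* was at 1.21, 1.10, 1.39 and 1.60 CPM in the CDD brains and between 1.501 and 1.97 CPM in the ND brains. For *Prlr*, 3 of 4 CDD brains were below every ND brain, and CDD replicates 1 and 2, the highest for *Aqp1* and *Folr1*, were the lowest. Neither receptor was called. The log2 fold change was -0.22 (95% interval -0.66 to 0.22, adjusted p = 0.578) for *Kl* and -0.38 (95% interval -0.77 to 0.00, adjusted p = 0.214) for *Prlr* in edgeR's test.

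*Msx1* (ENSMUSG00000048450) was at 10.4, 10.5, 8.67 and 8.33 CPM in CDD replicates 1 to 4 and at 9.60, 7.22, 9.11 and 8.44 CPM in ND replicates 1 to 4. The diets overlapped, with a log2 fold change of 0.14 (95% interval -0.08 to 0.36, edgeR adjusted p = 0.458). *Foxj1* (ENSMUSG00000034227) was at 24.1, 22.5, 21.3 and 22.4 CPM in the CDD brains and at 20.2, 22.3, 20.2 and 19.9 CPM in the ND brains. All CDD brains but replicate 3 were above every ND brain, and ND replicate 2 stood above the rest of its group. The log2 fold change was 0.13 (95% interval -0.01 to 0.26, edgeR adjusted p = 0.234).

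**Figure D2:**
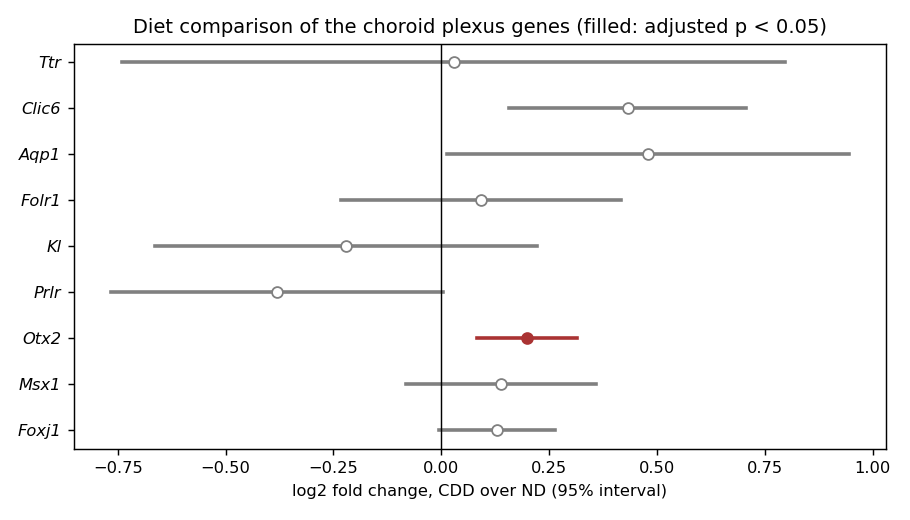
Log2 fold change of CDD over ND (horizontal axis) for each of the 9 genes (vertical axis), with the 95% interval of edgeR's fit as a line. Only *Otx2* is filled (adjusted p = 0.0327), and the interval of *Ttr*, -0.74 to 0.80, is the widest of the 9.

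Levels of different genes were compared per length, as the FPKM that the authors deposited. *Ttr* was at 230 ± 66.1 FPKM (SD, n = 8 brains), apart from all others. *Otx2* followed at 11.4 ± 1.03, *Foxj1* at 8.20 ± 0.562, *Clic6* at 5.13 ± 1.17, *Aqp1* at 3.68 ± 1.08, *Msx1* at 2.90 ± 0.353 and *Folr1* at 1.97 ± 0.362 FPKM (SD, n = 8 brains each). *Kl* at 0.155 ± 0.0327 and *Prlr* at 0.0990 ± 0.0189 FPKM (SD, n = 8 brains each) were the lowest. The ranges over brains were apart between *Ttr* and *Otx2*, between *Otx2* and *Foxj1*, and between *Folr1* and *Kl*. Those of *Foxj1* and *Clic6*, of *Clic6* and *Aqp1*, of *Aqp1* and *Msx1*, of *Msx1* and *Folr1*, and of *Kl* and *Prlr* overlapped.

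CDD replicate 1 was the highest of the 8 brains for 6 of the 9 genes, where it was the highest for 13.4% of all tested genes of at least 1 CPM. CDD replicate 4 was the lowest for 3 of them (*Ttr*, *Folr1* and *Kl*), or 33.3%, near the 25.0% of all genes for which it was the lowest. The mean over the 9 genes of log2 CPM, centred on each gene's mean, was 0.31, 0.15, -0.10 and -0.20 in CDD replicates 1 to 4 and between -0.08 and 0.01 in the ND brains. The SD of log2 CPM among CDD brains was 0.64 for *Ttr*, 0.43 for *Aqp1*, 0.42 for *Kl*, 0.37 for *Folr1* and 0.30 for *Clic6*. Only 0.516% of the 15888 genes of at least 1 CPM had an SD among CDD brains as large as that of *Ttr*. Among ND brains its SD was 0.10, which 35.7% of genes reached. *Otx2* and *Foxj1* had the smallest SDs of the 9 genes among CDD brains, 0.065 and 0.0736, and the median of all these genes was 0.11 with CDD and 0.07 with ND. The spread was larger with CDD than with ND for 6 of the 9 genes, as it was for 72.5% of all genes.

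Genes with the most similar profile over the 8 brains were found by the root mean square difference of centred log2 CPM, as a description of these libraries. *Otx2* and *Foxj1* were the nearest pair of members (0.04), followed by *Clic6* and *Aqp1* (0.15) and by *Folr1* and *Msx1* (0.16). This measure is not scaled, so profiles that are nearly flat are near each other whatever their shape. *Otx2* and *Foxj1* deviated by only 0.12 and 0.09 from a flat profile, against 0.28 for *Clic6* and 0.36 for *Aqp1*. Nearest to *Ttr* among 15887 genes were *Gm44646* (0.12), *Crb3* (0.16), a gene with the identifier ENSMUSG00000121053 only (0.17), *Gm12854* (0.17) and *Calml4* (0.17), where *Ttr* itself deviated by 0.40 from a flat profile. *Calml4* is in the list of other choroid plexus genes, and *Crb3* encodes a protein of apical cell polarity. Nearest to the mean profile of the 9 genes were *Gm5089* (0.05), *Plvap* (0.05), *Enpp2* (0.05), *Gm45250* (0.06) and *Lsm3* (0.06). The mean profile itself deviated by 0.15 from a flat one. *Enpp2*, which encodes autotaxin, is expressed in the choroid plexus epithelium, and *Plvap* in fenestrated capillaries such as those of the choroid plexus. The 5 genes nearest to *Aqp1*, singled out after their names were seen, were *Kcne2* (0.12), *Clic6* (0.15), *Sostdc1* (0.15), *Car12* (0.15) and *Htr2c* (0.15), all of them choroid plexus genes of the lists used here. Other members differed from *Aqp1* in this. Of the 5 genes nearest to *Clic6*, only *Htr2c* was in these lists. The 5 nearest to *Folr1*, *Kl*, *Otx2*, *Msx1*, *Prlr* and *Foxj1* held no gene of these lists.

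Of 39 further genes known from the choroid plexus epithelium, 38 were tested. The fitted difference was above 0 for 22 genes and below 0 for 16, and its median was 0.07 on the log2 scale. Of the 38, 2 were called higher (*Sulf1* and *Lrp2*) and 2 lower (*Slc4a10* and *Slc13a4*), and 13 had an unadjusted p-value under 0.05. Over all genes tested 4.24% were called higher and 4.59% lower, and 23.9% had such a p-value. *Sulf1*, which encodes an enzyme that trims heparan sulfate, was at 81.9 ± 9.45 CPM with CDD and 60.0 ± 4.87 CPM with ND (SD, n = 4 each), a log2 fold change of 0.45 (edgeR adjusted p = 0.00633). *Lrp2*, which encodes the endocytic receptor megalin, had a log2 fold change of 0.42 (edgeR adjusted p = 0.00925). Both are also expressed in other ventricular cells of the embryonic brain, and both were highest in CDD replicate 2. The bicarbonate transporter gene *Slc4a10*, which neurons express too, fell by 0.26 on the log2 scale and the sulfate transporter gene *Slc13a4*, which is also expressed in the meninges, by 0.61 (edgeR adjusted p = 0.0308 and 0.0169). Of the 7 genes of meninges and mesenchyme, *Col1a1* and *Col1a2* fell as well, by 0.23 each, *Lum* rose by 0.29 (edgeR adjusted p = 0.0474) and 4 were not called. The part of this tissue in the fall of *Slc13a4* was not tested. The call of *Sulf1* was lost without CDD replicate 4 (edgeR adjusted p = 0.0659), and that of *Slc13a4* without ND replicates 1, 3 or 4 (0.0635, 0.0719 and 0.0549). That of *Slc4a10* was lost without CDD replicates 3 or 4 or ND replicates 1, 3 or 4, and *Lrp2* held in all 8 fits with a brain left out but not with the deposited FPKM (adjusted p = 0.102 in limma). Without CDD replicate 3, 10 genes of the list were called, and without ND replicates 1, 3 or 4 the number was 2. Over all genes, 2495 were called without CDD replicate 3, against 1710 with all brains. Without ND replicates 1, 3 or 4 the numbers over all genes were 688, 471 and 615.

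CDD replicate 1 was again the highest brain for 18 of these 38 genes (47.4%, against 13.4% of all tested genes of at least 1 CPM). CDD replicate 4 was the lowest for 12 (31.6%), near its 25.0% of all genes. *Slc4a5*, which encodes a bicarbonate transporter, was at 8.85, 6.23, 3.04 and 3.20 CPM in CDD replicates 1 to 4 and between 2.23 and 4.09 CPM with ND. The potassium channel subunit gene *Kcne2* was at 15.5, 11.1, 7.71 and 7.99 CPM in the CDD brains and between 6.71 and 7.66 CPM in the ND brains. Their log2 fold changes, 0.73 and 0.54, had adjusted p-values of 0.346 and 0.170 in edgeR's test. Both genes, named after their values were seen, were high in CDD replicates 1 and 2 and near the ND brains in CDD replicates 3 and 4, as *Aqp1* was.

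**Figure D3:**
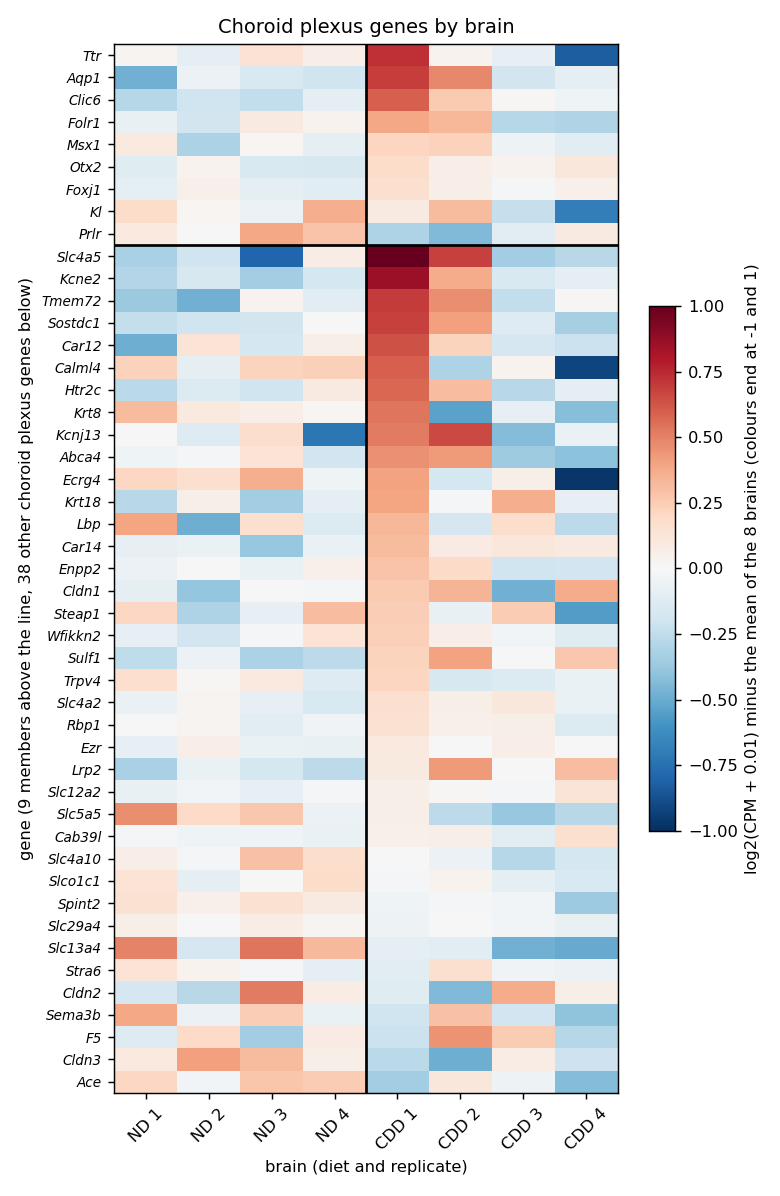
Each tested choroid plexus gene (vertical axis, the 9 members above the line and 38 further genes below) in each brain (horizontal axis), coloured by log2 CPM (with 0.01 added) relative to the average of that gene. Rows are ordered by their value in CDD replicate 1, where 6 of the 9 members and 18 of the 38 further genes were highest.

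Genes of the roof plate and cortical hem, the tissue from which the choroid plexus arises, had fitted differences above 0 for 12 of 16 genes, with a median log2 fold change of 0.25. Of the 16, 4 were called higher and 1 lower, where 4.24% and 4.59% of all genes tested were. *Wnt8b*, a Wnt ligand gene of the hem, was at 8.30, 6.46, 7.46 and 9.29 CPM in CDD replicates 1 to 4 and at 4.15, 5.78, 4.83 and 4.20 CPM in ND replicates 1 to 4. Every CDD brain was above every ND brain, and the difference was 0.73 on the log2 scale (standard error 0.13, edgeR adjusted p = 0.00286), and the call held with each brain left out. The roof plate factor gene *Lmx1a* rose by 0.42 on the log2 scale, the forebrain homeobox gene *Emx2* by 0.26 and *Otx1*, the paralog of *Otx2*, by 0.23 (edgeR adjusted p = 0.0180, 0.0433 and 0.0499). *Bmp6*, which encodes a BMP ligand, fell by 0.33 (edgeR adjusted p = 0.0126), and all CDD brains were below all ND brains. The part of other brain tissue in the differences of this list was not tested. The calls of *Emx2* and *Otx1* held in 2 of 8 fits with a brain left out, that of *Lmx1a* in 5 and that of *Bmp6* in 6. The calls of all 4 were lost without ND replicate 1 or ND replicate 3, where 1 gene of the list (*Wnt8b*) was called. Without CDD replicate 1 the number was 2, and without ND replicate 4 it was 3. Over all genes, 688 were called without ND replicate 1 and 471 without ND replicate 3, against 1710 with all brains. Without CDD replicate 1 or ND replicate 4 the numbers over all genes were 1208 and 615.

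In the list of multiciliation and motile cilia, to which *Foxj1* belongs by its role, 5 of 28 genes were called higher and 0 lower (4.24% and 4.59% of all genes tested). The 5 were *Mcidas*, *Gmnc* and *Ccno*, which act early in the multiciliated cell program, and the transcription factor genes *Rfx3* and *Rfx4*. *Mcidas* was at 1.99, 1.74, 2.02 and 1.54 CPM in CDD replicates 1 to 4 and at 1.2, 1.09, 0.838 and 0.899 CPM in ND replicates 1 to 4, with all CDD brains above all ND brains. The difference was 0.86 on the log2 scale (standard error 0.19, edgeR adjusted p = 0.00996). *Gmnc* was at 4.83, 3.59, 2.07 and 2.23 CPM in the CDD brains and between 1.35 and 1.94 CPM in the ND brains, and differed by 0.94 on the log2 scale (edgeR adjusted p = 0.0332). The log2 fold change was 0.77 for *Ccno*, 0.37 for *Rfx4* and 0.18 for *Rfx3* (edgeR adjusted p = 0.0378, 0.0119 and 0.0342). *Rfx3* was at 103 CPM with CDD and 91.4 CPM with ND, and *Rfx4* at 24.5 and 19.0 CPM. *Ccno* was at 1.65 and 0.966 CPM. The part of other brain cells in these differences was not tested. The median of the list was -0.02, with 13 genes above 0 and 15 below. Other regulators of the list, named after their values were seen, were not called: *Rfx2* had a log2 fold change of 0.34 and *Myb* of -0.08 (edgeR adjusted p = 0.0573 and 0.712). Without ND replicate 3, 0 genes of the list were called by edgeR, *Mcidas* having an adjusted p of 0.0530 there, and this was its only loss in 8 fits. Without ND replicate 4 the number was 1, and without CDD replicate 1 or ND replicate 1 it was 2. It was 3 without CDD replicate 4 or ND replicate 2. Over all genes, 471 were called without ND replicate 3, 615 without ND replicate 4 and 688 without ND replicate 1, against 1710 with all brains. Without CDD replicate 1, CDD replicate 4 or ND replicate 2 the numbers over all genes were 1208, 1514 and 1452. *Gmnc* and *Rfx3* held in 2, *Ccno* in 3 and *Rfx4* in 5 of these fits.

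A further list held partners or relatives of the 9 genes, such as the folate transporter genes *Slc46a1* and *Slc19a1* and the Klotho partner gene *Fgfr1*. Of its 11 tested genes, 0 were called by edgeR and 0 by DESeq2. An unadjusted p-value under 0.05 was found for 2 of them, *Slc19a1* (log2 fold change -0.14, edgeR adjusted p = 0.175) and *Folr2* (log2 fold change 0.79, edgeR adjusted p = 0.132). Over all genes tested, 8.83% were called by edgeR and 23.9% had such an unadjusted p-value. So few genes cannot set this list apart from those shares. *Folr2* was rare, at 0.503 CPM with CDD and 0.289 CPM with ND. *Prl*, which encodes the ligand of the prolactin receptor, did not pass the filter on low counts.

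**Figure D4:**
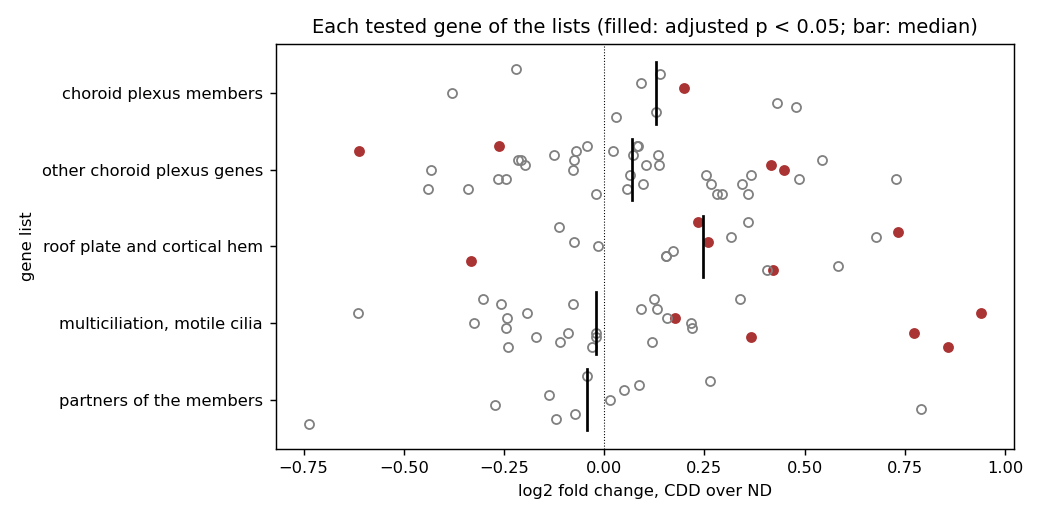
Log2 fold change of CDD over ND (horizontal axis) of each tested gene of the 5 lists (vertical axis, points spread for legibility), filled where the adjusted p-value was under 0.05, with the median of each list as a bar. *Mcidas*, *Gmnc* and *Ccno* lie between 0.77 and 0.94, to the right of the other genes of their list.

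Markers of other tissues gave these sums over the brains. The 6 endothelial genes summed to between 241 and 256 CPM with CDD and between 255 and 270 CPM with ND, with *Cldn5* called lower. The 7 genes of meninges and mesenchyme summed to between 281 and 306 CPM with CDD and between 294 and 354 CPM with ND, where *Lum* was called higher and *Col1a1* and *Col1a2* lower. The 8 eye genes found summed to between 8.06 and 9.91 CPM with CDD and between 7.46 and 8.59 CPM with ND. The pituitary genes (4 found) summed to between 11.4 and 15.2 CPM in any brain. The 8 genes of surface and nasal epithelium summed to between 1.39 and 2.69 CPM. Only 3 of the pituitary genes and 1 of the surface and nasal genes (*Epcam*) passed the filter on low counts. Of these, 0 were called by edgeR, which with so few genes tested says little about a difference between the diets. The part of these tissues in the differences between brains was not tested.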

How the data were processed

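Raw read counts per gene and brain were deposited by the authors, without normalization, in a table of 33971 genes, together with their FPKM values, which are the counts divided by a size factor per library and by the listed gene length. The submitters' processing notes name HISAT2 2.0.5, featureCounts 1.5.0-p3 and DESeq2 1.20.0, and the genome build is not given in the sources used here. Size-factor-scaled values and the authors' own fold changes and p-values, in the same table and in 3 subset files, were not used. Library totals were between 31770217 and 43121170 counts, and depth limits *Kl* and *Prlr* (29 to 68 counts per brain) most.

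After the filterByExpr step of edgeR 4.0.16, 19367 genes remained. TMM scaling and the robust quasi-likelihood test followed, in a model of diet alone. The 95% intervals use the standard error and the degrees of freedom of that fit. Fits were tested on simulated counts. Profiles use log2 CPM with a prior count of 2. Alternatives were DESeq2 1.42.0, limma-voom (limma 3.58.1), RLE and upper-quartile scaling, no filter, a minimum of 10 counts in each brain, a block for the replicate number, the deposited FPKM with a pseudocount of 1 in limma, and each brain left out. R 4.3.3, Python 3.11.15, pandas 2.3.3, NumPy 2.4.6 and matplotlib 3.10.9 were used. The members and lists were chosen with earlier results of these data known. Named are the 9 members, up to 8 called genes per list, and the 5 profiles nearest to *Ttr* and to the mean of the members. Others were named after their values were seen. *Gh*, *Fgb*, *Serpina1a*, *Rpe65* and *Cga* of the lists were not analysed here, and results for single genes of the eye, pituitary and partner lists are in part not reported here. No pair of libraries had counts within sampling noise of each other.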

Additional observations from a re-analysis of the deposited data

Results flagged for a closer look

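For *Foxj1*, ND replicate 2 was at 4.48 on the log2 CPM scale, far from the other ND brains, which lay between 4.32 and 4.34. The gap to its nearest neighbour was 0.868 of the range of the group. In 26 groups of 4 brains examined, 1 held a brain so far from the others, and about 1.3 would by chance (1 in 20).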

How the results depend on the processing

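The directions of *Clic6*, *Kl*, *Otx2*, *Aqp1*, *Msx1*, *Prlr* and *Foxj1* held under every alternative run. *Ttr* turned to -0.0733 with limma-voom, -0.0688 with the replicate block and -0.0676 with the deposited FPKM, and lay between -0.28 and 0.23 with a brain left out (-0.0127 without ND replicate 2). *Folr1* lay between -0.0274 and 0.20 with a brain left out, *Clic6* between 0.29 and 0.51, *Otx2* between 0.17 and 0.25 and *Aqp1* between 0.31 and 0.61. *Clic6* was called with DESeq2 (0.44), RLE scaling (0.43) and no filter (0.43), and *Aqp1* with DESeq2 (0.49, 0.0307 as its adjusted p) and no filter (0.48). *Otx2* was not called with the deposited FPKM (0.19, adjusted p = 0.0715 in limma). The number of members called was thus 3 with DESeq2 and with no filter, 2 with RLE scaling, 0 with the FPKM (limma) and between 0 and 3 with a brain left out. Over all genes, 1710 were called, 2151 with DESeq2, 1658 with RLE scaling, 2374 with no filter and 519 with the FPKM (limma). With a brain left out the number over all genes lay between 471 and 2495. With no filter, 10 further choroid plexus genes and 8 genes of roof plate and hem were called, and with the FPKM 1 and 2, and 1 of multiciliation. With a brain left out these 3 numbers lay between 2 and 10, 1 and 7, and 0 and 6. FPKM from TMM-scaled counts moved the level of 0 members by more than the SD between brains. The cause of these changes was not tested.

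Brains with the same replicate number share only a number. Their deviations from the mean of their diet correlated at 0.105, -0.133, 0.117 and 0.232 across genes, which are not independent. With the replicate block 1812 genes were called, 1 of them a member, *Otx2*. The block ended the calls of *Slc4a10* (adjusted p = 0.0505 in edgeR's test), *Otx1* (0.0672) and *Gmnc* (0.0502). Calls were also lost for *Gmnc* (0.0703) and *Emx2* (0.0524) with limma-voom and for *Otx1* with upper-quartile scaling (0.0547). With the FPKM in limma, *Sulf1*, *Wnt8b*, *Bmp6* and *Mcidas* alone kept their calls among the called genes of the lists. *Kl* and *Prlr*, at 29 to 68 counts per brain, are limited most by depth.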

Other observations

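The count of *Ttr* relative to that of other epithelial genes in the same brain, described after its values were seen and without a test, does not depend on the library size. It was 14.6, 11.4, 12.6 and 7.75 times the count of *Clic6* in CDD replicates 1 to 4 and 16.6, 14.4, 17.5 and 14.8 times in ND replicates 1 to 4. Relative to *Folr1* it was 74.9, 48.2, 68.1 and 41.1 times in the CDD brains and between 60.4 and 63.4 times in the ND brains. Relative to *Aqp1* it was 28.9, 20.7, 30.3 and 16.9 times in the CDD brains and 39.9, 27.5, 34.6 and 33.8 times in the ND brains. The ratios thus overlapped between the diets. As the highest over the lowest value, each ratio spread more widely among the CDD brains than among the ND brains, least so relative to *Aqp1*.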
